A study of Homo sapiens with 6 samples.

Results

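Described here are 10 genes of the cellular defence against oxidants: NFE2L2, which encodes the transcription factor NRF2, and 9 genes for enzymes of glutathione synthesis, quinone reduction, the thioredoxin system and the removal of superoxide and peroxides. They were taken by gene name from a deposited table of 60612 genes, and each of the 10 names stood on 1 row. RNA came from SH-SY5Y, an established line of human neuroblastoma cells, 3 libraries from cells infected with a control vector and 3 from cells whose vector is labelled for overexpression of CDKN2B-AS1, a noncoding transcript antisense to CDKN2B. All 6 libraries thus came from infected cells of 1 line, and no uninfected cells are part of the comparison. The column headers carry the tag LVx1 in the control group and LVx2 in the other, which no label explains, so a difference in handling that they mark and the difference between the vectors cannot be told apart. Whether libraries of 1 group stem from separate cultures is not said in the labels, so every p-value reflects only the spread among these libraries, which may be technical.

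NRF2 is held at a low level by KEAP1, an adaptor that brings it to a CUL3 ubiquitin ligase. When oxidants or electrophiles modify KEAP1, NRF2 accumulates, pairs with a small MAF protein and binds antioxidant response elements near genes such as NQO1, GCLC, GCLM and TXNRD1. Superoxide dismutases turn superoxide into hydrogen peroxide, which glutathione peroxidases and peroxiredoxins then reduce. NQO1 reduces quinones, which can form when catecholamines are oxidised in cells that make them.

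Sequence shows a feature that 3 of the 10 messages share and the choice of genes did not use. TXNRD1, GPX1 and GPX4 encode selenoproteins, in which a UGA codon within the reading frame is read as selenocysteine and not as stop. The principal GENCODE v29 transcripts of these 3 genes each held 1 in-frame TGA, and those of the other 7 members held 0. The 30 coding bases around each are printed 5′ to 3′, with the selenocysteine codon in capitals.
GPX1 (codon 49 of 203): aatgtggcgtccctcTGAggcaccacggtc
GPX4 (codon 73 of 197): aacgtggcctcccagTGAggcaagaccgaa
TXNRD1 (codon 498 of 499): gcaagcatcctccaggctggctgcTGAggt
In GPX1 and GPX4 the codon lay in the first part of the frame, and in TXNRD1 it was the last but 1 before the stop.

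Promoter sequence was searched for the core of the antioxidant response element, TGACNNNGC, on both strands of the 250 bases before each annotated start. RefSeq's promoter table (GRCh38.p14) held 15 starts for 8 of the 10 members, and none was used for PRDX1 or SOD1. The core was found at a start of TXNRD1 (both of its starts) and of GCLM, and in 10.9% of all 35116 promoters of the same length. The AP-1 motif TGANTCA, which can overlap such an element, matched 0 of the 15 and 6.57% of all. The 29 bases around each match are shown on the strand on which the core reads TGAC, with the core in capitals.
TXNRD1, chr12:104215670-104215698, plus strand, 99 to 91 bases before the start at 104215779: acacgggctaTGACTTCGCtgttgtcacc
TXNRD1, chr12:104286920-104286948, minus strand, 102 to 94 bases before the start at 104287032: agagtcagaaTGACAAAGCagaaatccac
GCLM, chr1:93909446-93909474, plus strand, 34 to 26 bases before the start at 93909430: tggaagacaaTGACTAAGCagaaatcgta
The whole 250 bases before the first of these starts, chr12:104215529-104215778 on the plus strand, are printed because TXNRD1 is among the members with the largest differences between the groups.
TXNRD1: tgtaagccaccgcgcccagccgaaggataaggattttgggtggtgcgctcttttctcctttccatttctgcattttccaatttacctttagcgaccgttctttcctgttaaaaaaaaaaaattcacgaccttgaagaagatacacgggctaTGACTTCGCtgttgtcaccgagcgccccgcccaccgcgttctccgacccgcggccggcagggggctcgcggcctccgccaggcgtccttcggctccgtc
A match describes letters only, and a window without one says nothing about binding or about elements outside the 250 bases searched.

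The labelled gain in CDKN2B-AS1 was small. CDKN2B-AS1 stood at 0.272, 0.288 and 0.191 FPKM (fragments per kilobase of gene, scaled to the assigned fragments of the library) in control vector replicates 1, 2 and 3 and at 0.338, 0.304 and 0.353 FPKM in the 3 overexpression-labelled replicates. The groups did not overlap, and a two-sided exact permutation test gave p = 0.1, the least that 3 against 3 libraries can give. Groups are therefore named by their labels. Depth, recovered from the values, ran from 20466583 to 48996425 fragments per library. The FPKM total over all genes lay between 381310 and 400215 in control vector and between 349703 and 365333 in overexpression-labelled libraries, and 13530 to 13754 against 13913 to 13965 genes reached 1 FPKM. Both measures separated the groups. Values with the FPKM totals made equal are given below, and the part of the number of genes was not tested. Of 12 listed adrenergic neuroblastoma markers 11 were high enough to test, with DBH at 588 ± 92.3 FPKM in control vector libraries (SD, n = 3), while TH was below the filter. Of 7 fibroblast markers 5 were tested, LUM highest at a mean of 14.5 FPKM in the controls and 17.0 FPKM in the other group, and their summed level was 30.8 to 46.5 FPKM against 34.4 to 45.4 FPKM. Of 5 Schwann and glial markers S100B alone was tested (sums 3.03 to 6.92 against 3.34 to 3.54 FPKM), and 0 of 5 immune and 0 of 5 epithelial markers reached the filter. The summed levels of these 4 lists overlapped between the groups.

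Of the 10 members 9 reached 1 FPKM in at least 3 libraries and were tested, while GCLM did not. In limma-trend on log2(FPKM + 0.5), 0 of the 9 passed a Benjamini-Hochberg adjusted p of 0.05, and limma-voom on the recovered fragments also called 0. Among all 13984 tested genes 1.14% passed. At an unadjusted limma p under 0.05 there were 4 of 9 members, NQO1, SOD2 and TXNRD1 on the higher side and GPX1 on the lower side, against 17.7% of all tested genes (10.4% higher, 7.34% lower). In 4 members the groups did not overlap, against 24.1% of all tested genes (14.2% higher, 9.9% lower): NFE2L2, NQO1 and SOD2 lay higher and GPX1 lower in the overexpression-labelled libraries. The median log2 fold change was 0.27 over the 9 members and 0.05 over all tested genes, and values were above 0 in 7 of the 9 members and in 56.8% of all tested genes. The members' median was 0.16 without control vector replicate 2, 0.17 with array weights, 0.14 with a trend on transcript length removed and 0.34 with FPKM totals made equal, where that of all tested genes was 0.15. In RNA of whole cultures, fewer cells that express a gene and less of its RNA per cell cannot be told apart. None of these differences is a call over all genes, and the values are given as measured. The members were chosen with earlier results of these data known, so their shares beside those of all genes do not test an excess.

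**Figure D1:**
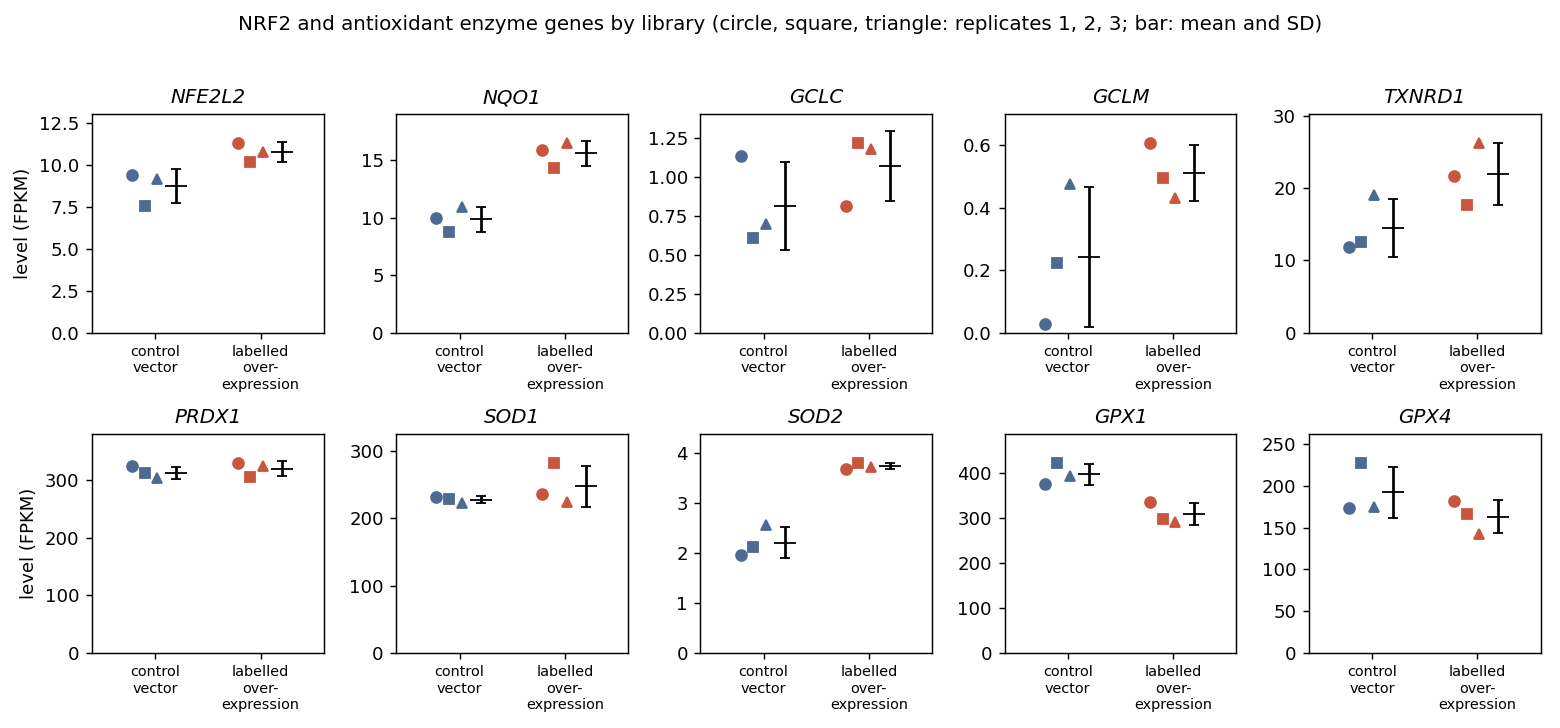
Level in FPKM (vertical axis, linear from 0) of each of the 10 genes in the 3 control vector and 3 overexpression-labelled libraries, with symbols for replicates 1, 2 and 3 and the mean and SD of each group. The groups are apart for NFE2L2, NQO1, SOD2 and GPX1, and control vector replicate 3 of TXNRD1, at 19.0 FPKM, lies within the range of the other group.

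NFE2L2 (ENSG00000116044, GRCh38 chromosome 2, 177227595 to 177392697, minus strand), the regulator itself, stood at 9.40, 7.54 and 9.16 FPKM in the 3 controls, replicates 1, 2 and 3 in order, against 11.3, 10.1 and 10.7 FPKM in the 3 overexpression-labelled replicates. No control reached the lowest overexpression-labelled library, and replicate 2 was the lowest library of each group. Group means were 8.70 ± 1.01 and 10.7 ± 0.592 FPKM (SD, n = 3 each), and their ratio was 1.23. The log2 fold change was 0.29 (SE 0.15, 95% interval -0.04 to 0.62), and the Benjamini-Hochberg adjusted p in limma-trend was 0.333. NRF2 is controlled mainly through the stability of its protein, which RNA does not show. The lncRNA AC074286.1, on the same strand, shares 1054 exonic bases with NFE2L2 and had 50.5 to 176 fragments per library. What part of the NFE2L2 count comes from shared bases was not tested. The lncRNA AC079305.10, which shares 190 exonic bases with NFE2L2 on the other strand, had 43.0 to 84.0 fragments per library against 1175.50 to 2983.50 for NFE2L2. Fragments of such opposite-strand pairs cannot be told apart, since nothing in the labels or headers says whether counting used strand.

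NQO1 (ENSG00000181019, chromosome 16, 69706996 to 69726668, minus strand), which encodes a quinone reductase and is a classical NRF2 target, had the smallest p of the members. Its level was 9.93, 8.73 and 10.9 FPKM in the 3 controls, replicates 1, 2 and 3 in order, against 15.9, 14.3 and 16.5 FPKM in the 3 overexpression-labelled replicates. The groups were apart, with every overexpression-labelled library above the highest control. Means were 9.86 ± 1.09 and 15.6 ± 1.12 FPKM (SD, n = 3 each), and their ratio was 1.58. The log2 fold change was 0.64 (SE 0.14, 95% interval 0.32 to 0.95), and the Benjamini-Hochberg adjusted p in limma-trend, 0.0646, missed the threshold. NQO1 ranked 245th by p among all tested genes. It passed in 3 of 17 alternative settings: with the FPKM totals equalised (0.75, limma adjusted p = 0.0436), with array weights (0.65, adjusted p = 0.0419) and with a filter of 5 FPKM (0.64, adjusted p = 0.0358). Leaving out single libraries gave limma adjusted p-values of 0.0570 to 0.227. The lncRNA CTD-2033A16.1 lies on the other strand, all 575 of its bases within exons of NQO1, and held 5.50, 15.5 and 49.0 fragments in the controls and 52.0, 29.5 and 122.5 in the overexpression-labelled libraries. Against the 753.50 to 2406.50 fragments of NQO1 these are few. The log2 fold change under the lncRNA's name was 1.49 (adjusted p = 0.118, limma-trend with Benjamini-Hochberg). With all its bases shared, this cannot be told apart from the difference in NQO1. It met the filter mainly through the overexpression-labelled libraries, at 3.29, 2.51 and 4.35 FPKM against 0.212, 0.928 and 1.96 FPKM in the controls.

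The pair of genes for glutamate-cysteine ligase, the rate-limiting enzyme of glutathione synthesis, stood near or below 1 FPKM. GCLC (ENSG00000001084, chromosome 6, 53497341 to 53616970, minus strand), the catalytic subunit, stood at 1.13, 0.609 and 0.696 FPKM in control vector and at 0.814, 1.22 and 1.17 FPKM in overexpression-labelled replicates 1, 2 and 3. The groups overlapped, since control vector replicate 1 lay above overexpression-labelled replicate 1. GCLC met the filter only just, through control vector replicate 1 and overexpression-labelled replicates 2 and 3. Its log2 fold change of 0.27 (SE 0.28, 95% interval -0.35 to 0.88) came with a Benjamini-Hochberg adjusted p in limma-trend of 0.653. That value was 0.44 without control vector replicate 1 and 0.16 without replicate 2. GCLM (ENSG00000023909, chromosome 1, 93885199 to 93909456, minus strand), the modifier subunit, was the lowest of the 10, at 0.0286, 0.222 and 0.475 FPKM in the controls and 0.609, 0.495 and 0.433 FPKM in the overexpression-labelled libraries. Control vector replicate 1 held only 7 fragments of GCLM, which gives an exact Poisson 95% interval of 0.0115 to 0.0589 FPKM for counting error alone, against 35 and 112 fragments in replicates 2 and 3. These counting intervals did not overlap between any pair of the 3 controls, and control vector replicate 3 lay inside the range of the other group. On the log2(FPKM + 0.5) scale the fold change was 0.49 (SE 0.33), and limma-voom on recovered fragments, which adds less to low values, gave 1.81 (SE 0.80). Without control vector replicate 1 the first of these was 0.27, and an exact two-sided permutation test of the 6 libraries gave p = 0.2. Within a library the ratio of GCLC to GCLM, both per kilobase, was 39.5 in control vector replicate 1 and 1.34 to 2.74 in the other 5 libraries.

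TXNRD1 (ENSG00000198431, chromosome 12, 104215779 to 104350307, plus strand), the cytosolic reductase that returns electrons to thioredoxin, stood at 11.8, 12.5 and 19.0 FPKM in control vector and at 21.7, 17.7 and 26.3 FPKM in overexpression-labelled replicates 1, 2 and 3. Control vector replicate 3 was above overexpression-labelled replicate 2, so the groups overlapped. Means of 14.4 ± 3.99 and 21.9 ± 4.31 FPKM (SD, n = 3 each) gave a ratio of 1.52. The log2 fold change was 0.60 (SE 0.20, 95% interval 0.14 to 1.06), and the Benjamini-Hochberg adjusted p in limma-trend was 0.179. It was 0.81 without control vector replicate 3 (limma adjusted p = 0.0650), 0.46 without overexpression-labelled replicate 3 and 0.53 with a trend on transcript length removed. For both TXNRD1 and NQO1, replicate 3 was the highest library of each group. With a block for replicate number TXNRD1 kept 0.60, with an SE of 0.13 (limma adjusted p = 0.0704). Whether the numbers pair the samples is not known. RPL18AP3, a ribosomal protein pseudogene within the span of TXNRD1, shares 0 exonic bases with it and was lower (its near-identical parent gene makes its count uncertain), at 582 ± 76.9 against 375 ± 46.2 FPKM (SD, n = 3 each), with a log2 fold change of -0.63 (adjusted p = 0.0451, limma-trend with Benjamini-Hochberg).

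PRDX1 (ENSG00000117450, chromosome 1, 45510914 to 45542732, minus strand), a peroxiredoxin that thioredoxin recycles, was among the most abundant members and nearly level. It stood at 324, 312 and 303 FPKM in control vector and at 331, 306 and 325 FPKM in overexpression-labelled replicates 1, 2 and 3. The ranges almost coincided, with means of 313 ± 10.3 and 320 ± 13.1 FPKM (SD, n = 3 each). Its log2 fold change of 0.03 had a 95% interval of -0.16 to 0.22 (adjusted p = 0.882, limma-trend with Benjamini-Hochberg), and its sign depended on the scaling, with -0.01 under median-of-ratios factors. Leaving out single libraries gave 0.01 to 0.07. MMACHC, on the other strand with 501 shared exonic bases, had a log2 fold change of -0.02.

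The superoxide dismutases differed from each other in level and in spread. SOD1 (ENSG00000142168, chromosome 21, 31659666 to 31668931, plus strand), the cytosolic copper-zinc enzyme, was at 232, 229 and 222 FPKM in control vector and at 236, 283 and 224 FPKM in overexpression-labelled replicates 1, 2 and 3. Overexpression-labelled replicate 2 was the only library outside 222 to 236 FPKM, with group means of 228 ± 4.91 and 248 ± 31.1 FPKM (SD, n = 3 each). Its log2 fold change was 0.11 (95% interval -0.12 to 0.35; adjusted p = 0.612, limma-trend with Benjamini-Hochberg) and 0.01 without that library, and 0.18 without overexpression-labelled replicate 3.

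SOD2 (ENSG00000112096, chromosome 6, 159669069 to 159762529, minus strand), the mitochondrial manganese enzyme, stood at 1.95, 2.11 and 2.54 FPKM in the controls and at 3.67, 3.80 and 3.72 FPKM in the overexpression-labelled libraries. The 3 overexpression-labelled libraries lay close together and well above the highest control. Means were 2.2 ± 0.308 and 3.73 ± 0.0628 FPKM (SD, n = 3 each), with a ratio of 1.69, the largest among the 9 tested members. On the log2 scale the difference was 0.65 (SE 0.19, 95% interval 0.23 to 1.08), and the Benjamini-Hochberg adjusted p in limma-trend was 0.132. Limma-voom on the recovered fragments, 1113.83 to 3304.74 per library, gave 0.76 (adjusted p = 0.0558). The span of SOD2 in the table takes in parts of other genes: SOD2-OT1 on the same strand shares 939 exonic bases with it, and WTAP and ACAT2 on the other strand share 437 and 133. Their log2 fold changes were 0.23, 0.13 and 0.05, each smaller than that of SOD2, which was not tested as a difference. In the same order they held 175.33 to 361.99, 1322 to 4527.75 and 3660.58 to 9642.49 fragments per library. What part of the SOD2 count comes from shared bases was not tested.

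Both glutathione peroxidases had lower means in the overexpression-labelled libraries, GPX1 without overlap of the groups and GPX4 with it, and neither passed the test. GPX1 (ENSG00000233276, chromosome 3, 49357176 to 49358353, minus strand), which reduces soluble peroxides, stood at 375, 423 and 392 FPKM in control vector and at 336, 298 and 290 FPKM in overexpression-labelled replicates 1, 2 and 3. All 3 controls lay above all 3 overexpression-labelled libraries. Means were 397 ± 24.0 and 308 ± 24.6 FPKM (SD, n = 3 each), and their ratio was 0.776. This was a log2 fold change of -0.37 (SE 0.10, 95% interval -0.58 to -0.15), with the Benjamini-Hochberg adjusted p in limma-trend at 0.102. Its copy GPX1P1, at 13.4 ± 2.12 against 10.8 ± 2.23 FPKM, had -0.30, and fragments that match both cannot be assigned with certainty.

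GPX4 (ENSG00000167468, chromosome 19, 1103926 to 1106791, plus strand), which reduces lipid peroxides in membranes and guards against ferroptosis, stood at 173, 228 and 175 FPKM in the controls and at 182, 166 and 142 FPKM in the overexpression-labelled libraries. Control vector replicate 2 was the highest and overexpression-labelled replicate 3 the lowest, with the other 4 libraries between 166 and 182 FPKM. Means were 192 ± 30.9 and 163 ± 20.1 FPKM (SD, n = 3 each). The log2 fold change of -0.23 (95% interval -0.53 to 0.07) came with a Benjamini-Hochberg adjusted p in limma-trend of 0.405 and was -0.10 without control vector replicate 2 and -0.13 without overexpression-labelled replicate 3. The 3 selenoprotein messages thus did not lie on 1 side: TXNRD1 was on the higher side, and GPX1 and GPX4 were on the lower.

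**Figure D2:**
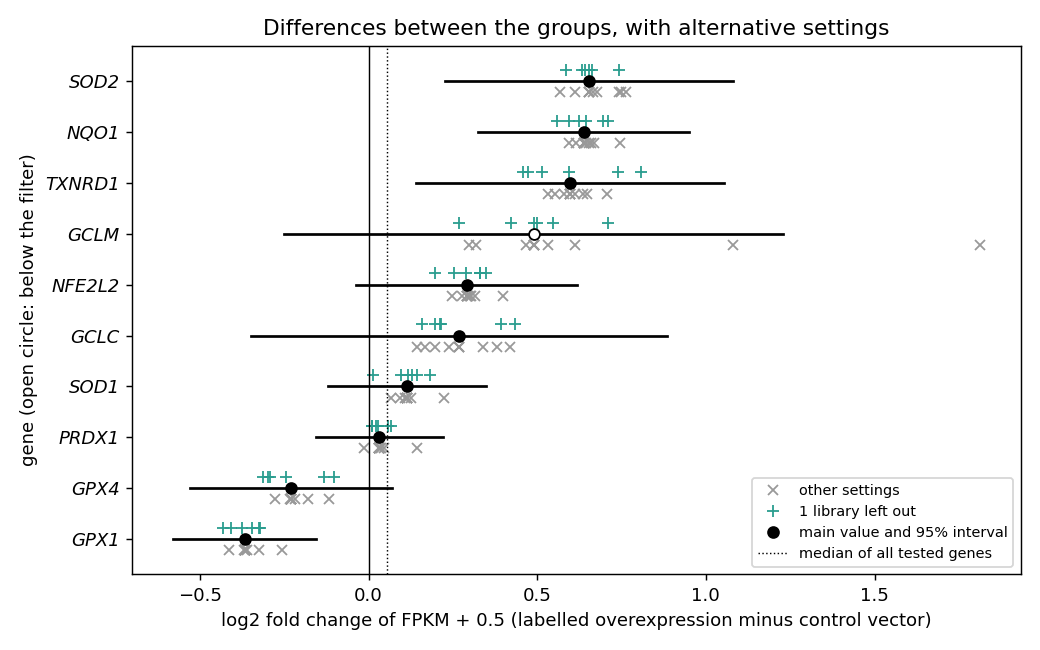
Log2 fold change of FPKM + 0.5, overexpression-labelled minus control vector (horizontal axis), for each gene, with the 95% interval of the limma-trend fit, the values with 1 library left out and those under the other settings. The open circle is GCLM, below the filter, and the dotted line is the median of all tested genes. SOD2, NQO1 and TXNRD1 lie between 0.60 and 0.65 and GPX1 at -0.37, and none of these 4 changes side under any setting.

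Levels per kilobase spanned the members from GPX1 at 397 to GCLM at 0.242 FPKM in the control vector libraries. GPX1, PRDX1, SOD1 and GPX4 formed the upper group, of which SOD1 and GPX4 overlapped in their ranges. TXNRD1, NQO1 and NFE2L2 followed between 14.4 and 8.70 FPKM, with overlapping ranges for NQO1 and NFE2L2, then SOD2, GCLC and GCLM. In the overexpression-labelled libraries PRDX1 (320 FPKM) and GPX1 (308 FPKM) overlapped at the top, and NQO1 and NFE2L2 no longer overlapped. The order rests on the gene lengths in the table, which for SOD2 is 18144 bases, 18.3 times its principal transcript. Per kilobase of the principal GENCODE transcript SOD2 was at 40.3 ± 5.64 in control vector libraries (SD, n = 3), above TXNRD1 at 24.6 ± 6.82, and SOD1 led at 466. These values assign every fragment of a gene to 1 transcript, of 990 bases for SOD2. Fragments outside it, or in bases shared with other genes, are included, so the values can be too high. Whether SOD2 stood above TXNRD1 is therefore not settled. Length enters the fold changes only through the 0.5 FPKM added before the log, which shrinks those of low genes such as SOD2. The coefficient of variation over the control vector libraries was 2.16% for SOD1 and 3.30% for PRDX1, against 27.7% for TXNRD1, 34.4% for GCLC and 92.6% for GCLM.

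The members' profiles over the 6 libraries were compared with that of NFE2L2 by the root mean square difference of log2(FPKM + 0.5), each gene centred on its own mean. Of 7406 ranked genes ST3GAL4, RP11-571M6.7 and JAM3 were closest, at 0.0388, 0.0471 and 0.0481. Among the members PRDX1 ranked 919th at 0.160 and NQO1 1480th at 0.185, while TXNRD1 ranked 4548th and GPX1 6070th. The ranked NRF2 targets of the set were not among the nearest profiles by this measure in these 6 libraries. Ranked were genes with a mean of at least 5 FPKM and the tested members, which leaves out GCLM. The measure counts the size of a difference as well as its direction. NQO1 had a log2 fold change of 0.64 against 0.29 for NFE2L2. It therefore does not decide whether the targets moved with NFE2L2.

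Other genes of the same pathways were read from 6 lists of 111 names, of which 110 were in the table and 95 were tested. In limma-trend 0 of the 95 passed a Benjamini-Hochberg adjusted p of 0.05, against 1.14% of all tested genes, and 0 passed in limma-voom. At an unadjusted limma p under 0.05 there were 16, 7 on the higher and 9 on the lower side, a share near the 17.7% of all tested genes. Among the 7 are CUL3 and CREBBP, which met the filter through the group in which they were higher. The median log2 fold change of the 95 was -0.04, against 0.05 over all tested genes.

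In the list of NRF2 control, 0 of 13 tested genes passed, and the median log2 fold change was 0.14. This median was 0.25 without control vector replicate 2 and 0.11 without overexpression-labelled replicate 1. With FPKM totals made equal it was 0.24, where that of all tested genes was 0.15. Under median-of-ratios factors it was 0.10, where that of all tested genes was 0.01. KEAP1 stood at 33.0 ± 3.02 against 37.8 ± 2.11 FPKM (SD, n = 3 each), with overlapping groups and a log2 fold change of 0.20. NFE2L1, which encodes the related factor NRF1, stood at 5.59, 3.75 and 4.71 FPKM in control vector and at 6.23, 7.39 and 7.66 FPKM in overexpression-labelled replicates 1, 2 and 3. Its groups were apart, with a log2 fold change of 0.56 (adjusted p = 0.170, limma-trend with Benjamini-Hochberg). BTRC, an F-box protein that can also direct NRF2 to degradation, had 0.46, and the coactivator gene CREBBP 0.79 from a low 0.744 ± 0.468 FPKM, or 0.51 without control vector replicate 2. CUL3, named after its values were seen because it belongs to the KEAP1 ligase, was as low, at 0.615 ± 0.251 against 1.25 ± 0.201 FPKM. CUL3 and CREBBP met the filter through the overexpression-labelled libraries (1 control of CREBBP also reached 1 FPKM), so their place among the tested genes came from the group in which they were higher. The small MAF genes MAFF and MAFK were below the filter, and MAFG had 0.14.

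Of 20 tested further NRF2 targets 0 passed. Their median log2 fold change was 0.04, but -0.02 without control vector replicate 3. Under median-of-ratios factors it was -0.00, where that of all tested genes was 0.01. SRXN1, sulfiredoxin, which repairs overoxidised peroxiredoxins, stood at 9.64, 8.98 and 12.4 FPKM in control vector and at 12.8, 17.1 and 17.0 FPKM in overexpression-labelled replicates 1, 2 and 3. The groups were apart by a narrow gap, with a log2 fold change of 0.58 (adjusted p = 0.140, limma-trend with Benjamini-Hochberg). FTL, the ferritin light chain, lay on the other side, at 1674 ± 116 against 1333 ± 41.6 FPKM (SD, n = 3 each) and -0.33 (adjusted p = 0.109, limma-trend with Benjamini-Hochberg). TALDO1, of the pentose phosphate pathway, had -0.19. HMOX1, heme oxygenase 1, was low and its groups overlapped, at 1.82 ± 0.501 and 2.46 ± 0.498 FPKM, while PGD and ME1 had log2 fold changes of 0.02 and 0.07 with overlapping groups. SLC7A11, the cystine transporter, was below the filter in both groups.

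Glutathione handling genes had a median log2 fold change of -0.12 over 24 tested, with 0 passing. It was -0.08 without control vector replicate 3. With FPKM totals made equal it was -0.02, where that of all tested genes was 0.15. Under median-of-ratios factors it was -0.16, where that of all tested genes was 0.01. GSTO1, a glutathione transferase, stood at 139, 148 and 149 FPKM in the controls and at 119, 95.2 and 116 FPKM in the overexpression-labelled libraries, apart and with -0.40 (adjusted p = 0.109, limma-trend with Benjamini-Hochberg). The abundant transferase GSTP1 was at 802 ± 47.1 against 706 ± 27.3 FPKM, and GLO1, glyoxalase 1, had -0.31 with overlapping groups.

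Among thioredoxins and other peroxiredoxins 12 of 14 tested genes had log2 fold changes below 0, against 43.2% of all tested genes, with a median of -0.12, and 0 passed. With FPKM totals made equal 7 of the 14 were below 0, against 31.1% of all. At that scaling the median was -0.01, against 0.15 over all tested genes. The median was -0.18 without control vector replicate 1 and -0.20 without overexpression-labelled replicate 3. PRDX3, the mitochondrial peroxiredoxin, stood at 108, 124 and 140 FPKM in control vector and at 88.1, 77.1 and 99.5 FPKM in overexpression-labelled replicates 1, 2 and 3. Its groups did not overlap, and the log2 fold change was -0.49 (adjusted p = 0.107, limma-trend with Benjamini-Hochberg). PRDX4, of the endoplasmic reticulum, had -0.30 (-0.19 without overexpression-labelled replicate 2), and TXNIP, which binds and inhibits thioredoxin, had -0.48 with overlapping groups. Thioredoxin itself, TXN, had -0.03, also with overlapping groups.

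The remaining superoxide and peroxide enzymes (9 tested, median 0.02) and the selenoproteins with the genes for selenocysteine insertion (15 tested, median -0.07) had 0 passing members as well. The first median had no stable sign, with -0.02 under median-of-ratios factors and -0.09 to 0.15 with single libraries left out. The second was -0.10 without overexpression-labelled replicate 3. With FPKM totals made equal the second was 0.03, where that of all tested genes was 0.15. PXDN, a peroxidase of the extracellular matrix, and GPX3, the secreted glutathione peroxidase, had 0.37 and 0.33, both with groups apart. PXDN was at 0.24 without control vector replicate 3, and GPX3 at 0.15 without overexpression-labelled replicate 2, its highest library at 43.0 FPKM. PARK7, which encodes DJ-1, stood at 230 ± 2.68 against 193 ± 18.6 FPKM (SD, n = 3 each), also apart, with -0.25. Catalase, CAT, stood at 9.06 ± 2.03 and 9.15 ± 1.85 FPKM. Among selenoprotein messages SELENOM and SELENOH had -0.42 and -0.22 and SELENOI 0.61 (0.34 without control vector replicate 2), each with overlapping groups.

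**Figure D3:**
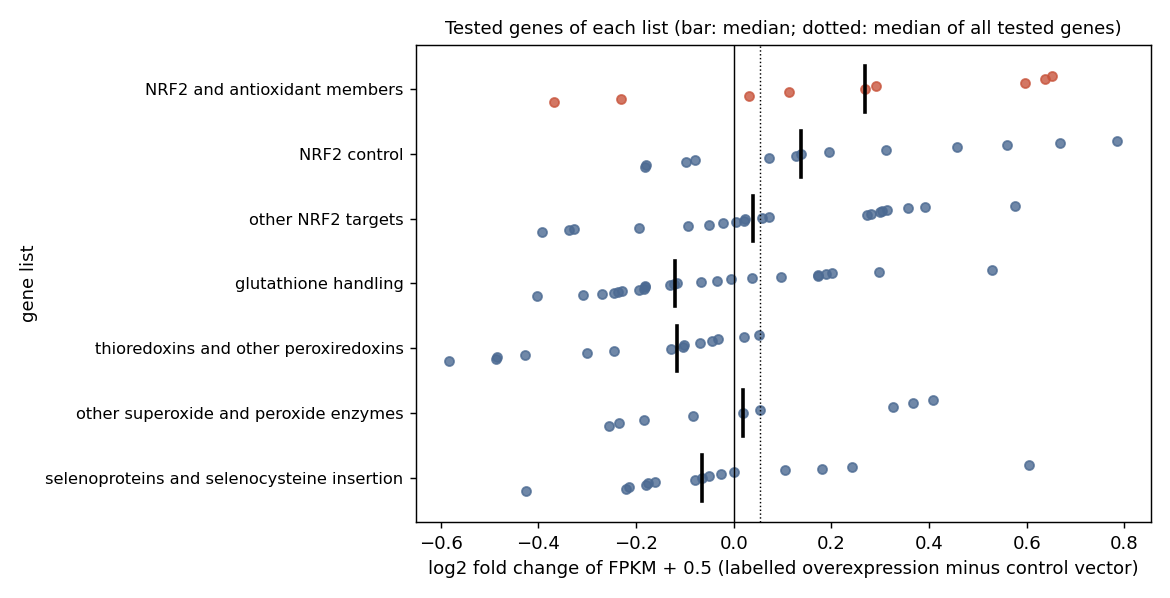
Log2 fold change of FPKM + 0.5, overexpression-labelled minus control vector (horizontal axis), of every tested gene of the 10 members and of the 6 lists, with each list's median as a bar and the median of all tested genes as a dotted line. The 9 tested members spread from -0.37 to 0.65, and 12 of the 14 tested genes of the thioredoxin and peroxiredoxin list lie below 0 at this scaling.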

How the data were processed

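The deposited table gives FPKM per gene for 6 libraries, computed by the authors. Tools named in the submitters' processing notes are featureCounts 2.0.1 and STAR 2.7.9, and the builds there are hg38 and GRCh38.p13. The labels' protocols describe SMART-seq HT libraries and paired-end reads. Options, strand use and annotation are not given in the sources used here. Multiplying FPKM by gene length put values up to 1000 fragments on steps of 0.01 fragment within 0.001, and 44.2% to 49.0% were whole, so depth was recovered but no count model was the main test.

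The main test was limma-trend (limma 3.58.1 under R 4.3.3) on log2 of FPKM plus 0.5, without a block, over the 13984 genes that reached 1 FPKM in 3 or more libraries. Benjamini-Hochberg adjustment covered all of these, with a threshold of 0.05. GCLM and CDKN2B-AS1 lie below the filter and were fitted beside them, with no adjusted p. A fold change on this scale understates that of low genes. Intervals are 95% intervals of the fit, and Poisson intervals cover counting error only. Members and lists were chosen with earlier results of these data known. Named are the members, CDKN2B-AS1, up to 3 genes of smallest p per list and any that passed, overlapping genes or copies with a mean of at least 1 FPKM, and the 3 profiles closest to NFE2L2. AC074286.1, below 1 FPKM, was added after its values were seen, for the exonic bases it shares with NFE2L2. Genes named for their role or level alone (KEAP1, CUL3, MAFF, MAFG, MAFK, HMOX1, PGD, ME1, SLC7A11, TXN, CAT and the markers) were chosen after their values were seen. The 17 alternatives changed 1 choice at a time, except limma-voom, which changes the input, the offset and the variance model together.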

Additional observations from a re-analysis of the deposited data

How the results depend on the processing

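The number of genes called, 159 (74 higher, 85 lower), was 0 without a filter and 0 without the mean-variance trend, where 3538 and 2304 genes had an unadjusted limma p under 0.05. It was 339 with a filter of 5 FPKM, 265 with array weights, and 0 to 124 with 1 library left out: 124 without control vector replicate 3, 3 without replicate 1, and 0 without replicate 2 or without any 1 of the 3 overexpression-labelled libraries, where 1665 to 2304 genes had an unadjusted p under 0.05. Values rescaled to a common total gave 181 higher and 52 lower and moved the median of all tested genes from 0.05 to 0.15, median-of-ratios factors gave 59 and 119, and limma-voom 79 and 48. Members called numbered 1, NQO1, with the 5 FPKM filter, the common total and array weights, and 0 in the other 14 alternatives. The log2 fold change of PRDX1 turned from 0.0321 to -0.0145 under median-of-ratios factors, and the other 9 members kept their sign in every alternative that gave them a value. With the 5 FPKM filter GCLC and SOD2 were not tested. No listed pathway gene was called under any of the 17 alternatives. The replicate block gave 229 calls and 0 members, and changed no call of a member or a listed gene. Same-numbered libraries correlated in their deviations from the group means at -0.02, 0.11 and 0.12, and differently numbered ones at -0.18 to 0.10. With 3 libraries per group, these values do not decide whether the numbers pair the samples. CDKN2B-AS1 had log2 fold changes of 0.09 (without control vector replicate 3, and with 1 FPKM added) to 0.44 (limma-voom), against 0.15. GCLM had the fewest fragments of the members, 7 to 115 per library, and this did not follow depth. The 7 were in control vector replicate 1, with 45102020 fragments in all. Overexpression-labelled replicate 2, the shallowest library at 20466583, held 55.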
